A study of Mus musculus with 50 samples.

Results

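The growth hormone and insulin-like growth factor (IGF) axis was followed in maternal and fetal mouse liver through 10 genes listed by symbol. Of these, 9 were measured, each by 1 probe of the array, among 30741 named genes in all. They were Ghr, Igf1, Igfals, Igfbp1, Igfbp2, Igfbp4, Socs2, Cish and Stat5b; the prolactin receptor gene Prlr had no probe under its symbol and was not analysed here. The members were listed by symbol, with no threshold on their values. In GRCm38.p6 the gene Igfbp2 lies at chr1:72824480-72852474, Igfbp4 at chr11:99040005-99052655, Stat5b at chr11:100780731-100859004 and Ghr at chr15:3317755-3583352.

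The values come from 50 microarrays of liver RNA from CD-1 mice, an outbred strain, taken at gestational day 17.5. Dams were gavaged daily from embryonic day 1.5 to 17.5 with a perfluorinated acid or with vehicle. The exposures were perfluorooctanoic acid (PFOA) at 1 mg/kg/day (PFOA1) or 5 mg/kg/day (PFOA5), and GenX, which is hexafluoropropylene oxide dimer acid, at 2 mg/kg/day (GenX2) or 10 mg/kg/day (GenX10); controls had the vehicle alone. All 5 maternal groups had 5 arrays, as did fetal PFOA1, GenX2 and control; fetal PFOA5 had 6 and fetal GenX10 had 4. Fetuses were labelled female and were exposed through the dam. The labels call dams and fetuses matched but do not name the pairs, and no sire or genotype difference is given. PFOA and GenX were given at different doses, so their values stand side by side below without a test between them.

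Growth hormone binds its receptor, GHR, on hepatocytes, and the kinase JAK2 then activates the transcription factors STAT5A and STAT5B. STAT5 drives transcription of Igf1, of Igfals, whose product holds IGF and its binding protein in a long-lived complex in blood, and of Cish and Socs2, whose products damp the same receptor. IGF-binding proteins carry IGF and limit its access to its receptor. In liver, Igfbp1 and Igfbp2 are known to be raised by fasting and lowered by insulin, and fetal growth depends largely on IGF2 and little on growth hormone. Rodent liver also holds genes whose level differs between the sexes through the timing of growth hormone pulses.

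Array signals are given on the log2 scale, where a difference of 1 is a doubling of signal; levels of different genes cannot be set against each other, since each has its own probe. A gene was taken as above background on an array when it passed the 95th percentile of that array's 5222 negative controls, which lay between 7.37 and 8.18. In all 10 groups Socs2 stayed at or under that mark. Igf1 and Igfals did so in all fetal groups, and Cish in all groups except maternal control, where 1 of 5 arrays passed. In bulk liver, fewer cells of a type and less RNA per cell cannot be told apart. The 9 measured hepatocyte markers were above background on all arrays. The fetal liver also carried 8 of 9 erythroid markers above background on every array of every group (Gata1 was at background), whereas 7 of the 9 were at background throughout the maternal groups.

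Several arrays go against their labels or stand apart. The source names of 2 fetal arrays disagree with their titles: the source name of PFOA5 replicate 6 reads GenX2 and that of GenX2 replicate 5 reads GenX10; titles were followed. Fetal control replicate 3 and fetal GenX2 replicate 2 showed signal from Y-linked genes and low Xist, whereas the other 23 fetal arrays did not. Maternal PFOA1 replicate 1 had 10.54 log2 signal for Ehhadh, a gene induced through the fatty acid receptor PPARA, against 11.94 to 12.36 in the other PFOA1 dams and 10.36 to 10.59 in maternal controls. Maternal GenX2 replicate 1 had the group's lowest mean hepatocyte marker signal (12.06, against 12.24 to 12.37 in the others) and its highest stellate cell signal (7.83, against 7.55 to 7.63).

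Promoters are shown for Igfals and Cish, the members whose RefSeq promoter windows (GRCm38.p6, 250 bases before to 50 after a transcript start) hold the STAT5 palindrome TTCNNNGAA, which reads the same on both strands. Capitals mark the palindrome. The windows are Igfals 1 at chr17:24877594-24877893, Igfals 2 at chr17:24877981-24878280 and Cish at chr9:107296409-107296708, all on the plus strand.
Igfals 1: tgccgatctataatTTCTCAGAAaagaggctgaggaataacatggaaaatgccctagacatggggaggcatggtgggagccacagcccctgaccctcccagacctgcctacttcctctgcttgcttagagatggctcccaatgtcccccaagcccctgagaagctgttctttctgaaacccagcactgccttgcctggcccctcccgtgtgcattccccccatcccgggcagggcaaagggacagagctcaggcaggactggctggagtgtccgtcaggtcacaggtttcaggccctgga
Igfals 2: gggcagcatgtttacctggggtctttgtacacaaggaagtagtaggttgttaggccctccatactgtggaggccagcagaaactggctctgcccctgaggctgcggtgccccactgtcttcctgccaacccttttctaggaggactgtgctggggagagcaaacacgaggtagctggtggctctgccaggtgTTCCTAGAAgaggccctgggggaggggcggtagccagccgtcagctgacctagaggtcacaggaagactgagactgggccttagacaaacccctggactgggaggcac
Cish: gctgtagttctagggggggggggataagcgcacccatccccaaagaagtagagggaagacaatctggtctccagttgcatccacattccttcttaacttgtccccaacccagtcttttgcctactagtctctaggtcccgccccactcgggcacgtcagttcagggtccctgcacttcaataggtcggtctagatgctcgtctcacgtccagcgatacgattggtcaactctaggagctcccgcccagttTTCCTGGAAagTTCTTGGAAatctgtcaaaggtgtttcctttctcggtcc
In Igfals the palindrome began 236 bases before 1 annotated start and 58 bases before another. In Cish it occurred 2 times, beginning at the start site and 11 bases into the transcript. Windows were given for 8 of the 9 measured members, 13 windows in all, and the other 10 windows did not hold these letters. Among all 32851 promoter windows of that table, 2726 (8.3%) held the palindrome. The direct repeat of AGGTCA with 1 base between the copies, bound by PPARA with its partner RXR, was in 0 of the 13 windows and in 0.0396% of all windows, read on both strands; these matches describe the sequence only.

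The first question was how far each exposure moved the axis in the dam. Igfbp2, which encodes an IGF-binding protein secreted by hepatocytes, was higher in 3 of the 4 exposed maternal groups. It averaged 10.69 ± 0.19 log2 signal in PFOA1, 10.996 ± 0.17 in PFOA5, 10.86 ± 0.16 in GenX2 and 11.19 ± 0.10 in GenX10, against 10.29 ± 0.17 in maternal control livers (SD, n = 5 each). Igfals, Stat5b, Igfbp4 and Cish passed with lower values in PFOA5 dams, and Cish also in GenX10 dams. Igf1 itself did not pass the test in any maternal group.

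**Figure D1:**
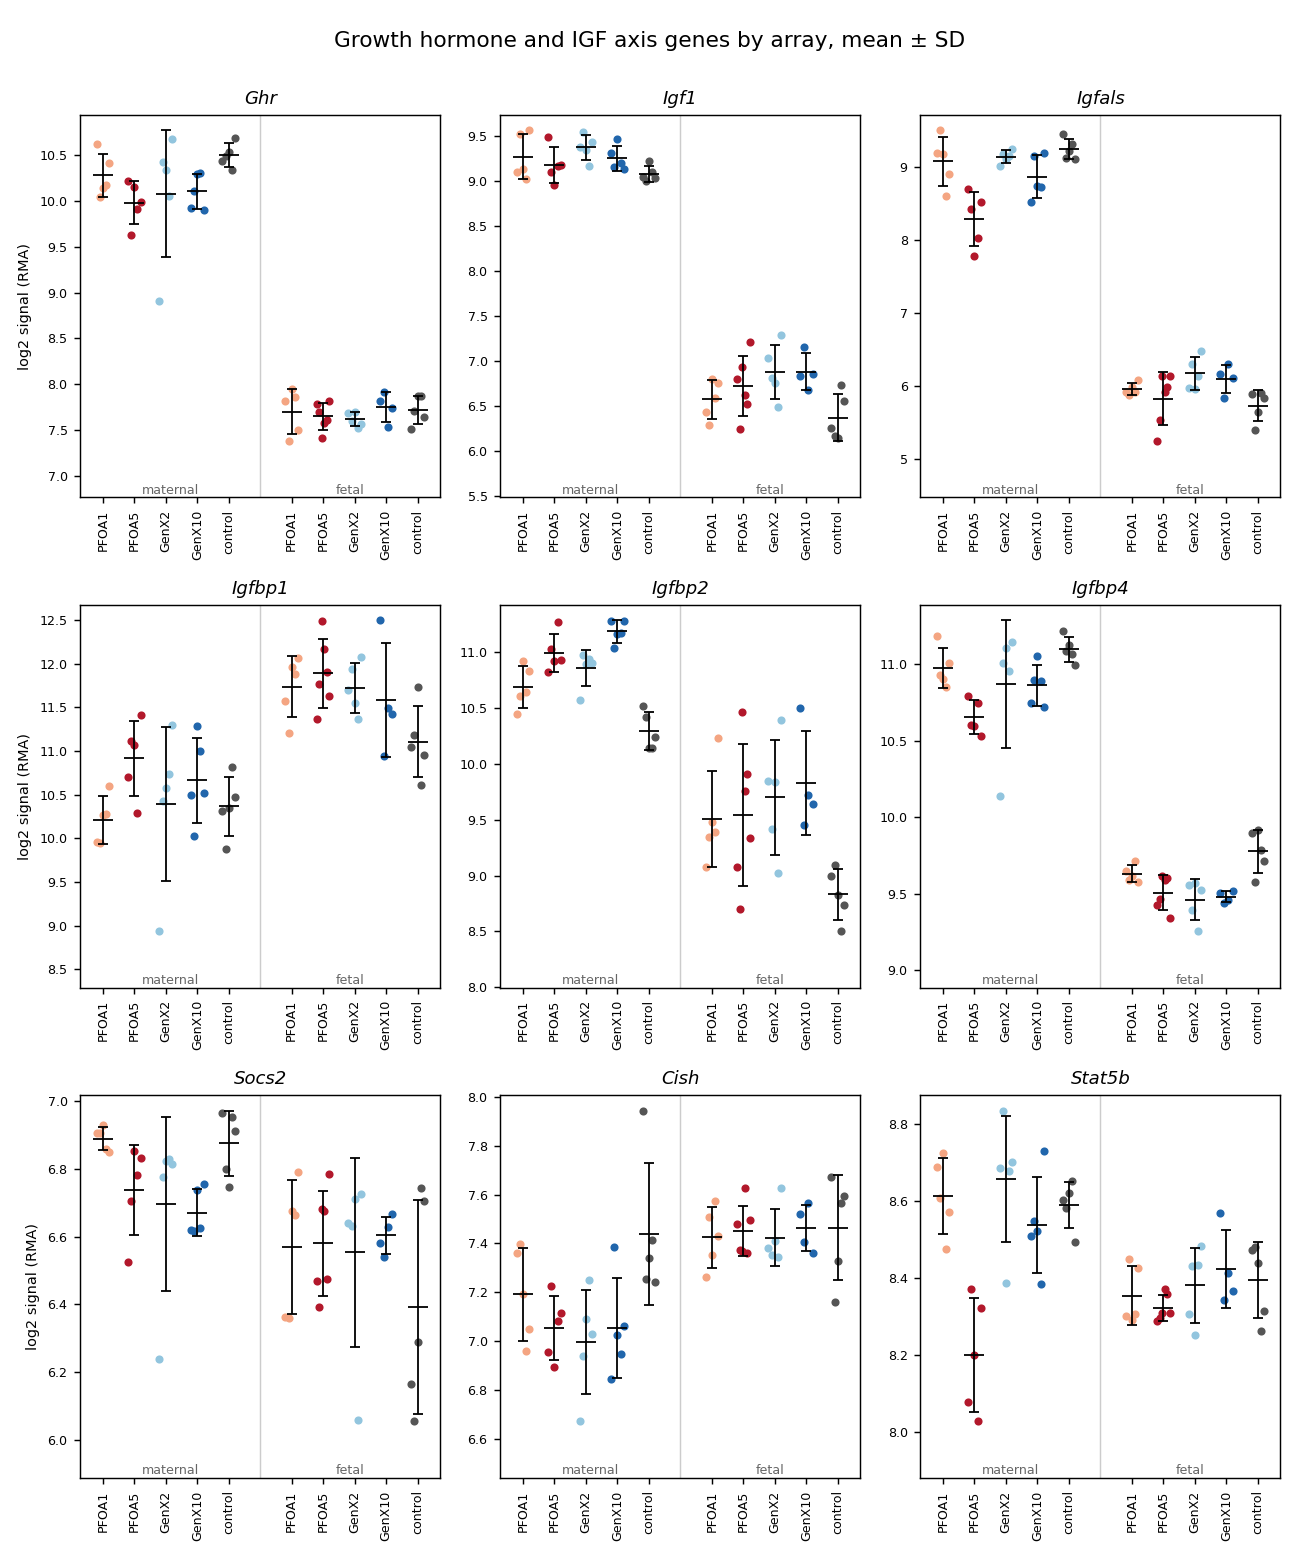
Log2 signal (RMA, vertical axis) of the 9 measured genes by array, with 1 point per array and bars for the group mean ± SD; the exposed groups stand left of the control, maternal livers left and fetal livers right. All 5 Igfbp2 values of maternal GenX10 (11.04 to 11.28) lie above all 5 of maternal control (10.14 to 10.52), and all 5 Igfals values of maternal PFOA5 (7.79 to 8.70) lie below all 5 of maternal control (9.12 to 9.46).

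In PFOA1 dams, 0 of the 9 members passed the test at an adjusted p under 0.05 over all 30741 genes, by limma; 0.0325% of all genes passed, and 1 member had an unadjusted p under 0.05. That member was Igfbp2, with values of 10.45, 10.61, 10.92, 10.64 and 10.83 in PFOA1 dams, against 10.52, 10.42, 10.14, 10.14 and 10.25 in control dams. Only the PFOA1 array of control-like Ehhadh signal, at 10.45, lay within the control range. The log2 difference was 0.40 ± 0.10 (SE) with an adjusted p of 0.22. Without that array it was 0.46 with an adjusted p of 0.0315. Of the 10 fits that left out 1 array only this 1 passed (range 0.0315 to 0.704). Of the 8 other alternatives 0 passed (0.065 to 0.61). For the other 8 members the difference ran between -0.25 (Cish) and 0.19 (Igf1).

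In PFOA5 dams, 5 of the 9 members passed, 1 higher and 4 lower, where 19.9% of all genes passed, 10.8% higher and 9.05% lower. The median log2 difference of the 9 was -0.39, against -0.05 over all genes. Igfbp2 was at 10.83, 11.03, 10.92, 11.27 and 10.93 in PFOA5 dams, with no value in the control range quoted above. It rose by 0.70 ± 0.10 (SE) on the log2 scale, or 1.63-fold (adjusted p 1.2e-05).

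Igfals, the acid-labile subunit, was at 8.70, 8.43, 7.79, 8.03 and 8.52 in PFOA5 dams, against 9.46, 9.14, 9.23, 9.32 and 9.12 in control dams. The groups did not overlap. The log2 difference was -0.96 ± 0.16 (SE), a level 1.95-fold lower in PFOA5 (adjusted p 0.00012).

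Stat5b, the transcription factor downstream of GHR, was at 8.08, 8.37, 8.20, 8.03 and 8.32 in PFOA5 dams, against 8.60, 8.58, 8.62, 8.65 and 8.49 in control dams. All PFOA5 values lay under all control values, and the log2 difference was -0.39 ± 0.08 (SE), or 1.31-fold lower (adjusted p 0.00088). Its paralogue Stat5a also fell, by 0.25 on the log2 scale (adjusted p 0.0074). Igfbp4, an IGF-binding protein made by many tissues, was at 10.80, 10.60, 10.60, 10.75 and 10.53 in PFOA5 dams, against 11.22, 11.09, 11.13, 11.07 and 10.996 in control dams. The groups did not overlap, and the log2 difference was -0.45 ± 0.13 (SE), or 1.36-fold lower (adjusted p 0.015).

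Cish, the STAT5-driven feedback inhibitor, was at 6.96, 7.22, 6.89, 7.08 and 7.11 in PFOA5 dams, all at background, against 7.94, 7.26, 7.34, 7.42 and 7.24 in control dams. It passed the test with a log2 difference of -0.39 ± 0.13 (SE; adjusted p 0.033), but only the control array at 7.94 was above background, so no fold is given. Without that control replicate 1 the difference was -0.26 and the adjusted p 0.107; the call was also lost without control replicate 4 (0.0517) or without PFOA5 replicate 1 (0.0743), 3 (0.0653) or 4 (0.0556), or with arrays centred on their medians (-0.33, 0.0815).

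Ghr, the receptor itself, was at 10.22, 9.63, 10.15, 9.91 and 9.99 in PFOA5 dams, against 10.44, 10.50, 10.53, 10.34 and 10.69 in control dams. The values did not overlap, yet the difference of -0.52 ± 0.21 (SE) had an adjusted p of 0.081 and did not pass. In the fit that held only these groups the adjusted p was 0.00478, in a range of 0.00478 to 0.147 over 8 alternatives, 4 of which passed. In the fit of all maternal groups the spread of Ghr includes the GenX2 dam at 8.91. This comparison was not refitted without that array alone, so its part was not tested. Igf1 was at 9.18 ± 0.20 in PFOA5 and 9.08 ± 0.09 in control dams, and Igfbp1, a binding protein induced by fasting, at 10.92 ± 0.43 in PFOA5 and 10.37 ± 0.34 in control dams; their adjusted p values were 0.51 and 0.20.

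In GenX2 dams, 1 of the 9 members passed, where 3.38% of all genes did, 2.44% higher and 0.937% lower. Igfbp2 was at 10.58, 10.97, 10.89, 10.94 and 10.90 in GenX2 dams, with all values above the highest control value of 10.52. It rose by 0.56 ± 0.10 (SE), or 1.48-fold (adjusted p 0.00094). Cish had a log2 difference of -0.44 and an adjusted p of 0.051, and Igf1 one of 0.30 and 0.13. Cish was at background on all 5 GenX2 arrays and on all control arrays except replicate 1. Of the 10 fits that left out 1 array, 3 passed for Cish (adjusted p 0.0204 to 0.171) and 1 for Igf1 (0.0485 to 0.293). Without GenX2 replicate 4 the adjusted p was 0.0204 for Cish and 0.0485 for Igf1. Without control replicate 2 or 5, that of Cish was 0.0467 or 0.0428. Of the other alternatives, 2 of 7 passed for Cish and 1 of 8 for Igf1. Ghr was at 8.91, 10.42, 10.34, 10.06 and 10.67 in GenX2 dams. The lowest value belongs to replicate 1, the array of low hepatocyte and high stellate marker signal. The difference from control was -0.42 with that array and -0.13 without it, and did not pass either way. Leaving out that array gave 0.39 in place of 0.03 for Igfbp1 and -0.045 in place of -0.23 for Igfbp4, and neither passed.

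In GenX10 dams, 2 of the 9 members passed, where 13.8% of all genes did, 7.55% higher and 6.22% lower. Igfbp2 was at 11.28, 11.04, 11.16, 11.17 and 11.28 in GenX10 dams, and all 5 values lay above every control value. It rose by 0.89 ± 0.10 (SE), or 1.86-fold (adjusted p 5.9e-07). Cish was at 6.85, 7.39, 7.03, 6.95 and 7.06 in GenX10 dams, again at background, with a log2 difference of -0.39 ± 0.13 (SE; adjusted p 0.042). That call was kept in 3 of the 10 fits that left out 1 array. It was lost without control replicate 1 (-0.26, adjusted p 0.123), 3 (0.0568) or 4 (0.0666), or without GenX10 replicate 1 (0.13), 3 (0.0725), 4 (0.0761) or 5 (0.0714). Igfals was at 8.52, 9.16, 8.75, 8.73 and 9.20 in GenX10 dams. These values overlap the control range of 9.12 to 9.46, and the difference of -0.38 ± 0.16 (SE) had an adjusted p of 0.11. Ghr, at 10.11 ± 0.19 in GenX10, had a difference of -0.39 and an adjusted p of 0.20, and Stat5b one of -0.05 and 0.68.

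**Figure D2:**
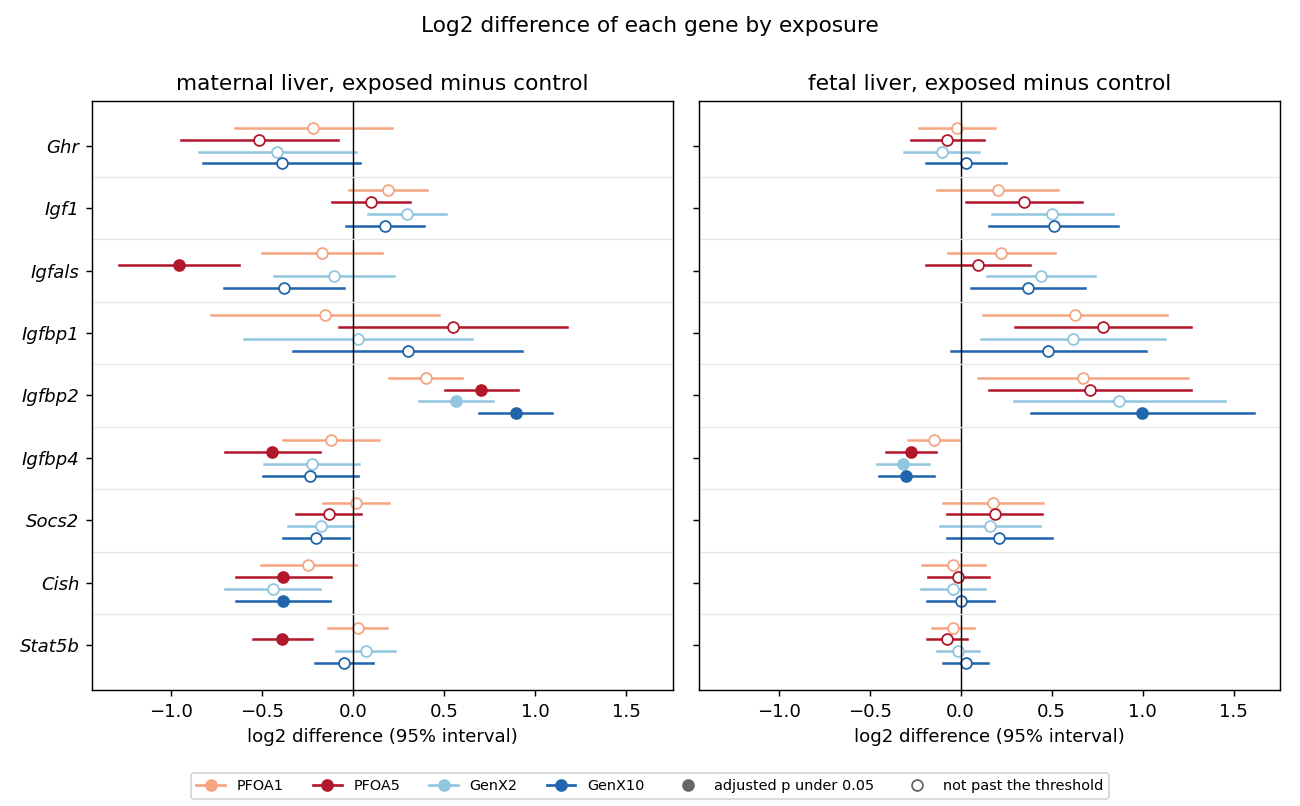
Log2 difference of each gene from its tissue's control (horizontal axis) with the 95% interval, for the 4 exposures in maternal (left) and fetal (right) liver; filled points passed the adjusted p threshold of 0.05. Igfbp2 lies right of 0 for all exposures in both tissues, from 0.40 to 0.89 in maternal and from 0.67 to 1.00 in fetal liver, and Igfals lies left of 0 in maternal PFOA5 (-0.96).

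Igf1, Igfbp1 and Socs2 did not pass in any maternal group set against control. Igf1 averaged 9.27 ± 0.25 in PFOA1, 9.18 ± 0.20 in PFOA5, 9.38 ± 0.14 in GenX2 and 9.26 ± 0.14 in GenX10 dams, against 9.08 ± 0.09 in control dams. Igfbp1 averaged 10.21 ± 0.27, 10.92 ± 0.43, 10.39 ± 0.88 and 10.67 ± 0.49 in the same exposed groups, against 10.37 ± 0.34 in control dams. Socs2, which encodes a STAT5-driven inhibitor of the receptor, was at background everywhere, with means of 6.67 to 6.89 in exposed dams and 6.88 in control dams.

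Among maternal dose steps, PFOA5 set against PFOA1 gave 3 of 9 members (18.7% of all genes passed, 10.2% higher and 8.51% lower). Igfals was lower in PFOA5 by a log2 difference of -0.79 ± 0.16 (SE; adjusted p 0.0012) and Stat5b by -0.41 ± 0.08 (0.00063). Igfbp2 was higher by 0.30 ± 0.10 (0.032), a call kept in 5 of the 10 fits that left out 1 array. It was lost without PFOA1 replicate 1 (0.24, adjusted p 0.0872), 2 (0.0627) or 4 (0.0686), or PFOA5 replicate 2 (0.0642) or 4 (0.24, 0.108), and repeating the quantile normalization gave a difference of 0.11 with an adjusted p of 0.503 (range over 8 alternatives 0.0159 to 0.503). GenX10 set against GenX2 gave 0 of 9 by limma, with 1 member at an unadjusted p under 0.05 (0.241% of all genes passed). That member was Igfbp2, higher in all 5 GenX10 dams than in any GenX2 dam, with a difference of 0.33 ± 0.10 and an adjusted p of 0.24.

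Both PFOA5 and GenX10 dams, which share their control arrays, were also described through other genes of the pathway. Of 21 listed IGF system genes outside the members, 17 were measured. In PFOA5 dams 1 rose and 3 fell, and in GenX10 dams 1 rose and 2 fell. Over all genes 19.9% passed in PFOA5 dams (10.8% higher, 9.05% lower) and 13.8% in GenX10 dams (7.55% higher, 6.22% lower). The list's median log2 difference was -0.07 and -0.08, against -0.05 over all genes in each. The gene that rose was Grb10, which encodes an adaptor that restrains insulin and IGF receptor signalling and is imprinted. Its mean was 8.27 ± 0.23 in PFOA5 and 7.96 ± 0.32 in GenX10 dams, against 6.46 ± 0.06 in control dams, where it was at background on all arrays. It was at least 1.58-fold higher in PFOA5 (adjusted p 2.2e-09) and at least 1.27-fold higher in GenX10 (4.2e-08).

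Igf2, the fetal growth factor, averaged 6.85 ± 0.14 in PFOA5 and 6.92 ± 0.11 in GenX10 dams, at background on all arrays, against 7.72 ± 0.49 in control dams, where 3 of 5 arrays were above background. It passed with lower values in both PFOA5 (adjusted p 0.0011) and GenX10 dams (0.0043). The control mean includes arrays at background, so no fold is given. Igfbp6, a binding protein with preference for IGF2, fell by 0.25 on the log2 scale in PFOA5 dams (adjusted p 0.011) and by 0.26 in GenX10 dams (0.012). The receptor gene Igf1r passed in PFOA5 dams at a difference of -0.15 (adjusted p 0.048), with all arrays of both groups at background. In PFOA1 and GenX2 dams 0 of the 17 passed, where 0.0325% and 3.38% of all genes did.

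Of 26 listed genes of growth hormone and prolactin receptor signalling, 22 were measured. In PFOA5 dams, where 19.9% of all genes passed, 1 rose and 4 fell. Stat5a, named above, was the only one of these with all arrays of both groups above background. Prl2c2, Cux2, Socs1 and Ptpn2 were at background in PFOA5 dams; Cux2, a growth hormone-dependent repressor found in female liver, differed by -0.36. In GenX10 dams, where 13.8% of all genes passed, 1 rose and 2 fell. Ptpn1, a phosphatase that acts on JAK2 and the insulin receptor, rose by 0.24 (adjusted p 0.0081). The 2 that fell, Prl2c2 and Gh, were at background on all GenX10 arrays. Prl2c2 alone passed in GenX2 dams, also at background, and 0 of 22 passed in PFOA1 dams.

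Sex-dependent targets of growth hormone moved in both directions. Over all genes 10.8% rose and 9.05% fell in PFOA5, and 7.55% rose and 6.22% fell in GenX10 dams. In GenX2 dams 2.44% rose and 0.937% fell. Of 22 listed male-biased genes 20 were measured; 4 rose and 10 fell in PFOA5, and 4 rose and 8 fell in GenX10 dams. Mup3, of the major urinary protein family, whose members are alike in sequence and can share signal, was at 8.08 ± 0.40 in PFOA5 and 7.52 ± 0.35 in GenX10 dams, against 10.35 ± 0.24 in control dams, with log2 differences of -2.28 (adjusted p 8.3e-07) and -2.84 (5.1e-08). The male-biased genes that rose the most were Cyp4a12a and Cyp4a12b, near-identical fatty acid hydroxylase genes also induced through PPARA, whose probes can share signal; Cyp4a12a was at least 23.6-fold higher in PFOA5 dams. Of 25 listed female-biased genes 22 were measured; 5 rose and 11 fell in PFOA5, and 3 rose and 3 fell in GenX10 dams. A1bg, a secreted plasma protein gene of female liver, was at 9.52 ± 0.22 in PFOA5 dams, against 11.18 ± 0.09 in control dams, a difference of -1.66 (adjusted p 2.6e-05). Acot3 and Cd36, which rose, are also induced through PPARA. In GenX2 dams 4 male-biased genes rose and 3 fell, and 3 female-biased genes rose and 0 fell; in PFOA1 dams 0 passed.

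Of 19 listed insulin and FOXO1 responsive genes 16 were measured. In PFOA5 dams 3 rose and 2 fell, where 10.8% of all genes rose and 9.05% fell. In GenX2 dams 2 rose and 0 fell, against 2.44% and 0.937% of all genes. In GenX10 dams 2 rose and 1 fell, against 7.55% and 6.22%. In PFOA1 dams 0 passed, where 0.0325% of all genes did. The list's median log2 difference was -0.05, 0.07 and 0.05 in PFOA5, GenX2 and GenX10 dams, against -0.05, -0.03 and -0.05 over all genes. Txnip, an inhibitor of glucose uptake, rose by 0.72 in PFOA5 (adjusted p 5.9e-06), 1.00 in GenX2 (9.1e-07) and 0.64 in GenX10 dams (4.1e-05). Creb3l3, a liver transcription factor of lipid metabolism, rose by 0.51, 0.27 and 0.38 in the same groups. Trib3, an inhibitor of AKT, rose by 1.02 in PFOA5 dams (adjusted p 3.1e-05). Ppargc1a passed with lower values in PFOA5 (-0.63) and GenX10 (-0.41) while at background on all arrays of these groups, and Sesn3 differed by -0.47 in PFOA5 dams (adjusted p 0.0097).

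Marker lists of other cell types were read in the same dams. Over all genes 10.8% rose in PFOA5 and 7.55% in GenX10 dams. Of 10 macrophage and Kupffer cell markers, 5 rose in PFOA5 and 3 in GenX10 dams. Their mean level per array ran between 7.06 and 7.9997 in PFOA5 and between 7.36 and 8.02 in GenX10 dams, against 6.86 to 7.68 in control dams. Adgre1, Timd4 and C1qa were at background in both exposed groups. The hepatocyte marker mean ran between 12.13 and 12.27 in PFOA5 and between 12.22 and 12.32 in GenX10 dams, against 12.24 to 12.31 in control dams. The stellate and fibroblast mean ran between 7.50 and 7.64 in PFOA5 and between 7.46 and 7.94 in GenX10 dams, against 7.65 to 7.76 in control dams. Lrat, Des and Acta2 of that list were at background in PFOA5 and control dams. The endothelial mean ran between 7.26 and 7.69 in PFOA5 and between 7.22 and 7.92 in GenX10 dams, against 7.53 to 7.75 in control dams. The part of these cell types in the changes was not tested. Of 17 measured targets of PPARA, 2 rose in PFOA1 and 16 each in PFOA5, GenX2 and GenX10 dams, and 0 fell.

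The second question was whether the axis moved in the fetus. Igfbp4 fell in 3 of the 4 exposed fetal groups and Igfbp2 rose in 1; 0 of the other 7 members passed. Igfbp4 averaged 9.63 ± 0.06 log2 signal in PFOA1 (n = 5), 9.51 ± 0.11 in PFOA5 (n = 6), 9.46 ± 0.13 in GenX2 (n = 5) and 9.48 ± 0.04 in GenX10 (n = 4), against 9.78 ± 0.14 in fetal control livers (SD, n = 5). Igfbp2 averaged 9.51 ± 0.43, 9.54 ± 0.63, 9.70 ± 0.52 and 9.83 ± 0.46 in the same exposed groups, against 8.83 ± 0.23 in fetal controls.

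In PFOA1 fetuses 0 of the 9 members passed by limma, where 0.953% of all genes did; 3 members had an unadjusted p under 0.05. These were Igfbp2 (0.67), Igfbp1 (0.63) and Igfbp4 (-0.15), with adjusted p values of 0.51, 0.42 and 0.60.

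In PFOA5 fetuses 1 of the 9 members passed, where 3.39% of all genes did, 2.33% higher and 1.05% lower. Igfbp4 ran between 9.34 and 9.62, with a median of 9.53, in PFOA5 fetuses, against 9.90, 9.57, 9.91, 9.79 and 9.71 in control fetuses. The lowest control lay inside the PFOA5 range. The log2 difference was -0.27 ± 0.07 (SE; adjusted p 0.018). The call was lost without fetal PFOA5 replicate 6, the array of disagreeing labels (-0.24, adjusted p 0.0531), without control replicate 3, the array of Y-linked signal (0.0657), and without control replicate 1 (0.0697). Igfbp1 ran between 11.37 and 12.49, with a median of 11.83, in PFOA5 fetuses, against 11.04, 11.18, 11.73, 10.62 and 10.96 in control fetuses. The highest control, replicate 3, lay inside the PFOA5 range, and the difference of 0.78 ± 0.23 (SE) had an adjusted p of 0.068, or 0.94 and 0.0285 without that control; without PFOA5 replicate 1 it was 0.0356. Igfbp2 in these fetuses spread from 8.70 to 10.47, with a difference of 0.71 and an adjusted p of 0.20.

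In GenX2 fetuses 1 of the 9 members passed, where 6.73% of all genes did, 3.9% higher and 2.83% lower. Igfbp4 was at 9.56, 9.39, 9.57, 9.25 and 9.52 in GenX2 fetuses, and the groups did not overlap, although the highest GenX2 and the lowest control value both round to 9.57. It fell by 0.32 ± 0.07 (SE) on the log2 scale, or 1.25-fold (adjusted p 0.0051); with only the groups compared in the fit the adjusted p was 0.0545. Igfbp2 was at 9.85, 9.42, 9.84, 9.02 and 10.39 in GenX2 fetuses, against 8.99, 9.10, 8.83, 8.50 and 8.74 in control fetuses. Only the GenX2 value of 9.02 overlapped the controls, and the difference of 0.87 ± 0.28 (SE) had an adjusted p of 0.063; without that array, replicate 4, it was 1.04 with an adjusted p of 0.0346. Igf1 and Igfals had differences of 0.50 and 0.44 with adjusted p values of 0.061 and 0.066, at background on all fetal arrays. Without control replicate 4, or without GenX2 replicate 4, the adjusted p of Igf1 was 0.0328 or 0.0334.

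In GenX10 fetuses 2 of the 9 members passed, where 9.28% of all genes did, 4.42% higher and 4.85% lower. Igfbp2 was at 10.51, 9.46, 9.73 and 9.64 in GenX10 fetuses, all above the highest control value of 9.10. It rose by 1.00 ± 0.30 (SE), or 2.00-fold (adjusted p 0.035). The call was kept in 4 of the 9 fits that left out 1 array. It was lost without GenX10 replicate 1, the array at 10.51 (0.77, adjusted p 0.156) or 4 (0.0509), or without control replicate 1 (0.0524), 4 (0.0743) or 5 (0.0736), and also without the 2 arrays of Y-linked signal (0.0543). Igfbp4 was at 9.50, 9.44, 9.46 and 9.51 in GenX10 fetuses, all below the lowest control value of 9.57. It fell by 0.30 ± 0.07 (SE), or 1.23-fold (adjusted p 0.011); with arrays centred on their medians the difference was -0.22 and the adjusted p 0.0659. Igf1, at background on all arrays, had a difference of 0.51 and an adjusted p of 0.061; without control replicate 4 or GenX10 replicate 3 it was 0.0328 or 0.0429, and without the 2 arrays of disagreeing labels 0.032. With those 2 arrays grouped by source name, both Igf1 (0.0128) and Igfals (0.0395) passed.

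Markers of several cell types moved in the fetal groups, and their part in the results was not tested. Of all genes 0.953%, 3.39%, 6.73% and 9.28% passed in PFOA1, PFOA5, GenX2 and GenX10 fetuses. Of 9 hepatocyte markers 0 rose; 2 fell in GenX2 (Cps1 by 1.26 and Apoa1 by 0.26) and 1 in GenX10 fetuses (Apoa1, by 0.31). Their mean per array ran between 11.68 and 11.96 in PFOA1, 11.66 and 11.89 in PFOA5, 11.46 and 11.84 in GenX2 and 11.74 and 11.88 in GenX10 fetuses, against 11.81 to 11.95 in control fetuses. Of 10 macrophage and Kupffer cell markers 0 rose; Csf1r fell in PFOA5, GenX2 and GenX10 fetuses by 0.28, 0.27 and 0.31, and C1qa passed with a lower value at background in GenX10. Adgre1, Vsig4, Timd4 and C1qa were at background in all fetal groups, and the mean per array ran between 7.24 and 7.81 in the exposed groups, against 7.50 to 7.69 in control fetuses. Of 7 stellate and fibroblast markers Reln fell in all 4 exposed groups, by 0.40 to 0.63, Lrat passed with a lower value at background in GenX2, and Des passed with a higher value in PFOA5 and GenX2. The mean ran between 7.52 and 8.81 in the exposed groups, against 7.77 to 8.34 in control fetuses, where Lrat and Des were at background. The mean of 5 fetal hepatocyte markers ran between 11.508 and 11.623 in control fetuses. It ran between 11.277 and 11.476 in PFOA5 fetuses, below all controls. The ranges were 11.302 to 11.523 in PFOA1, 11.420 to 11.512 in GenX2 and 11.420 to 11.510 in GenX10. Granulocyte, megakaryocyte and endothelial means spanned 8.89 to 9.50, 8.17 to 8.85 and 7.70 to 8.22 in exposed fetuses. Control fetuses spanned 9.17 to 9.41, 8.44 to 8.63 and 7.74 to 7.79.

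Erythroid markers had overlapping ranges among fetal groups, and 1 of 9, Slc4a1, rose in GenX2 fetuses (0.24). Their mean per array ran between 9.38 and 10.09 in PFOA1, 9.47 and 9.90 in PFOA5, 9.76 and 10.49 in GenX2 and 9.79 and 10.10 in GenX10 fetuses, against 9.67 to 10.05 in control fetuses; Gata1 was at background in all. With that mean as a covariate, 5 of the 9 members passed in GenX2 and 5 in GenX10 fetuses; Igfbp2 then differed by 1.16 in GenX2 (adjusted p 0.00172, in a range of 0.00172 to 0.197 over 12 alternatives), and Igf1 by 0.64 (0.00725, in a range of 0.00725 to 0.144 over 11). In these groups Igf1, Igfals and Socs2 were at background on every array, whatever the fit.

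No member passed in the fetal dose steps. PFOA5 against PFOA1 gave 0 of 9 by limma, with 0 members at an unadjusted p under 0.05 (0.0488% of all genes passed). GenX10 against GenX2 likewise gave 0 of 9, with 0 members at an unadjusted p under 0.05. There, 0% of all genes passed, with 619 of the 30741 genes at an unadjusted p under 0.05. For Igfbp2 the difference between GenX10 and GenX2 fetuses was 0.13 ± 0.30 (SE), and for Igfbp4 0.02 ± 0.07.

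Over all genes 0.953%, 3.39%, 6.73% and 9.28% passed in PFOA1, PFOA5, GenX2 and GenX10 fetuses. Among the 17 other IGF system genes, 0 passed in PFOA1 fetuses and 1 in PFOA5 fetuses, where Irs1, the insulin and IGF receptor substrate, differed by -0.59 (adjusted p 0.0061). It did so by -0.46 in GenX10 fetuses (0.037), with all arrays of these groups and of the controls at background. Igf2r, the receptor that clears IGF2, averaged 9.89 ± 0.07 in GenX2 and 9.96 ± 0.04 in GenX10 fetuses, against 9.58 ± 0.16 in control fetuses. It rose by 0.31 in GenX2 (adjusted p 0.021) and 0.38 in GenX10 (0.0072), with no overlap between either group and the controls. Igf2 lay between 11.29 and 11.54 on all fetal arrays and did not pass in any exposure. Of the 22 measured growth hormone and prolactin receptor signalling genes, 0 passed in PFOA1 and PFOA5 fetuses. In GenX2 fetuses Ptpn1 rose by 0.21 (adjusted p 0.014) and Cux2 differed by -0.22 (0.015), and in GenX10 fetuses Cux2 differed by -0.24 (0.012), at background throughout.

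**Figure D3:**
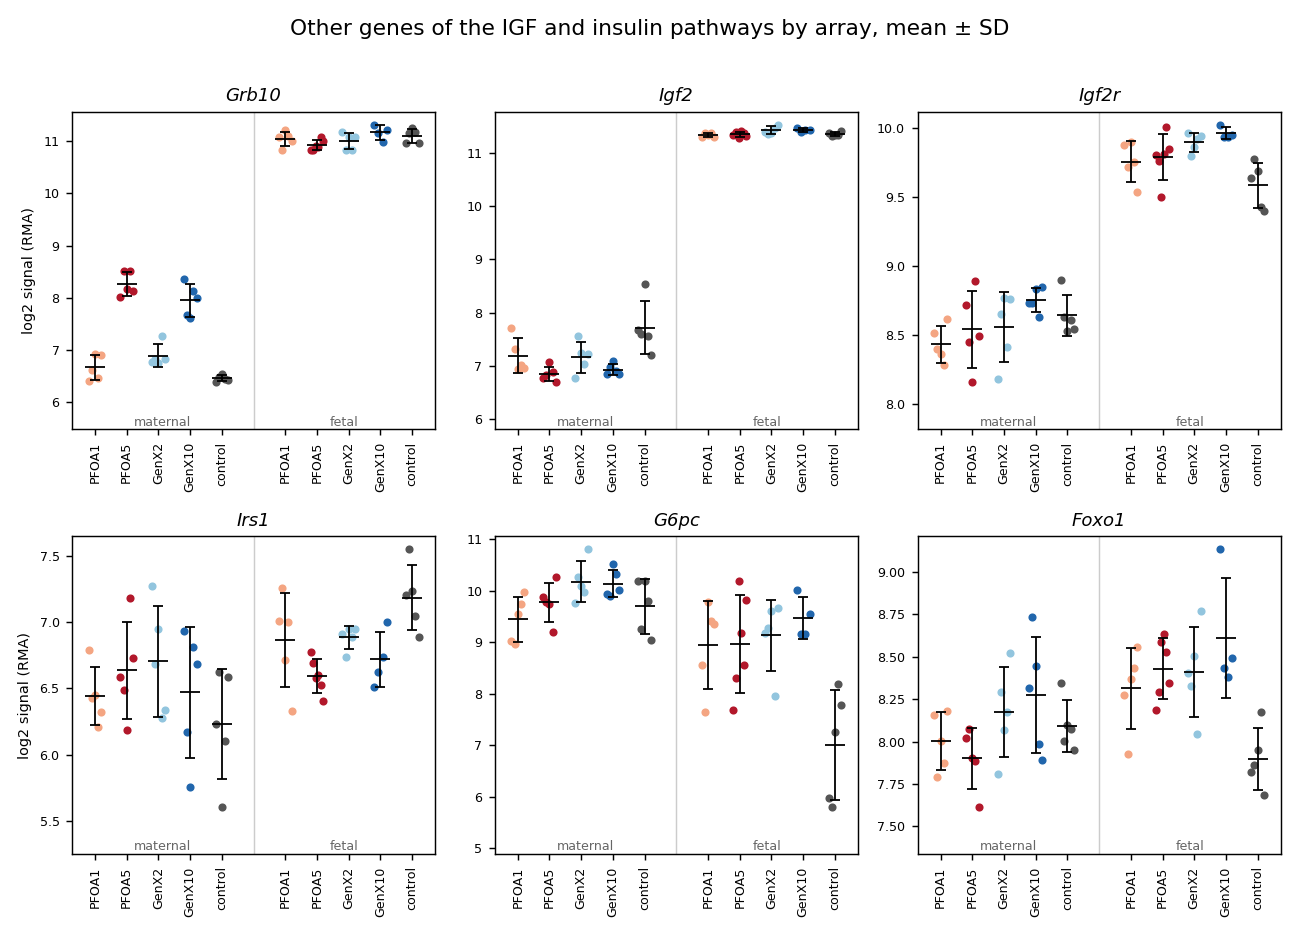
Log2 signal (RMA, vertical axis) of 6 other genes of the IGF and insulin pathways by array, with 1 point per array and bars for the group mean ± SD; exposed groups stand left of the control, maternal livers left and fetal livers right. Grb10 averages 8.27 in maternal PFOA5 and 6.46 in maternal control livers, and G6pc averages 9.47 in fetal GenX10 and 7.01 in fetal control livers.

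Of the 16 measured insulin and FOXO1 responsive genes, 1 rose in PFOA1, 4 in PFOA5, 6 in GenX2 and 6 in GenX10 fetuses, and 0 fell in any. Over all genes 2.33%, 3.9% and 4.42% rose in PFOA5, GenX2 and GenX10 fetuses, and 0.953% passed in either direction in PFOA1. The list's median difference was 0.22, 0.26, 0.12 and 0.12, against 0.02, -0.01, -0.03 and -0.06 over all genes. G6pc, the last enzyme of glucose release and a gene repressed by insulin through FOXO1, averaged 8.96 ± 0.95 in PFOA5, 9.14 ± 0.69 in GenX2 and 9.47 ± 0.41 in GenX10 fetuses, against 7.01 ± 1.07 in control fetuses. It passed with higher values in all 3 (adjusted p 0.017, 0.0082 and 0.0032); only 1 of 5 control arrays was above background, so no fold is given. Foxo1 rose by 0.53 in PFOA5 (0.027), 0.51 in GenX2 (0.029) and 0.71 in GenX10 fetuses (0.0033), with 2 of 5 control arrays above background. Creb3l3 rose in all 4 exposed groups, by 0.63, 0.86, 0.87 and 1.04 from PFOA1 to GenX10, and Sesn3, a stress-response gene and FOXO target, passed with higher values in GenX2 and GenX10 fetuses, with 0 of 5 control arrays above background. Txnip rose by 1.13 in GenX2 and 1.07 in GenX10 fetuses. Akt2, a kinase of the insulin pathway, rose by 0.19 in PFOA5, 0.22 in GenX2 and 0.24 in GenX10 fetuses.

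Of the 20 measured male-biased genes, 2 rose in each exposed fetal group, Cyp4a12a and Cyp4a12b in each case, and 0, 1, 1 and 4 fell from PFOA1 to GenX10. Beside the shares that rose, given above, 1.05%, 2.83% and 4.85% of all genes fell in PFOA5, GenX2 and GenX10 fetuses. Cyp4a12a averaged 10.77 ± 0.60 in PFOA1, 11.34 ± 0.62 in PFOA5, 11.33 ± 0.40 in GenX2 and 11.46 ± 0.28 in GenX10 fetuses, against 9.10 ± 0.75 in control fetuses. Of the 22 measured female-biased genes, 2, 4, 3 and 5 rose and 0, 2, 4 and 4 fell in the same order, and Acot3, also a target of PPARA, rose in all 4. Targets of PPARA rose in 13, 14, 15 and 15 of 17 cases, and 0 fell.

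The control livers of the 2 tissues were compared next. Of the 9 members, 8 differed between fetal and maternal controls, 7 lower and 1 higher in fetal liver; 62.2% of all genes passed, 42.2% lower and 20% higher. The median difference of the 9 was -1.32, against -0.13 over all genes. Ghr was at 7.51, 7.71, 7.87, 7.87 and 7.65 in fetal controls, all at background, against the maternal control values of 10.34 to 10.69 given above. It was at least 6.09-fold lower in fetal liver (adjusted p 1.8e-18). Igf1 was at 6.25, 6.17, 6.14, 6.73 and 6.55 in fetal controls, against 9.04, 9.002, 9.22, 9.10 and 9.04 in maternal controls, at least 2.28-fold lower (4.4e-21). Igfals was at 5.89, 5.39, 5.64, 5.90 and 5.83 in fetal controls, at least 2.57-fold lower than in maternal controls (1.9e-23).

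Binding proteins went in both directions. Igfbp2 averaged 8.83 ± 0.23 in fetal and 10.29 ± 0.17 in maternal controls, or 2.76-fold lower in fetal liver (adjusted p 2.4e-07). Igfbp4 averaged 9.78 ± 0.14 in fetal and 11.10 ± 0.08 in maternal controls, or 2.50-fold lower (9.4e-15). Igfbp1 averaged 11.11 ± 0.41 in fetal and 10.37 ± 0.34 in maternal controls, with overlapping values, and was 1.67-fold higher in fetal liver (0.025). That call was lost without fetal control replicate 3, the array of Y-linked signal (0.58, adjusted p 0.0926), or without maternal control replicate 2 (0.0756).

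Stat5b averaged 8.39 ± 0.10 in fetal and 8.59 ± 0.06 in maternal controls, 1.15-fold lower in fetal liver (adjusted p 0.012); with arrays centred on their medians the difference was -0.13 and the adjusted p 0.124 (range over 12 alternatives 0.000714 to 0.124). Socs2 passed at a difference of -0.48 with both groups at background. Cish, at 7.46 ± 0.21 in fetal and 7.44 ± 0.29 in maternal controls, differed by 0.02 with a 95% interval of -0.20 to 0.25. In fetal controls all 9 erythroid and all 8 granulocyte markers passed with higher values than in maternal controls, and 6 of 9 hepatocyte markers with lower values. Their part in these differences was not tested.

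**Figure D4:**
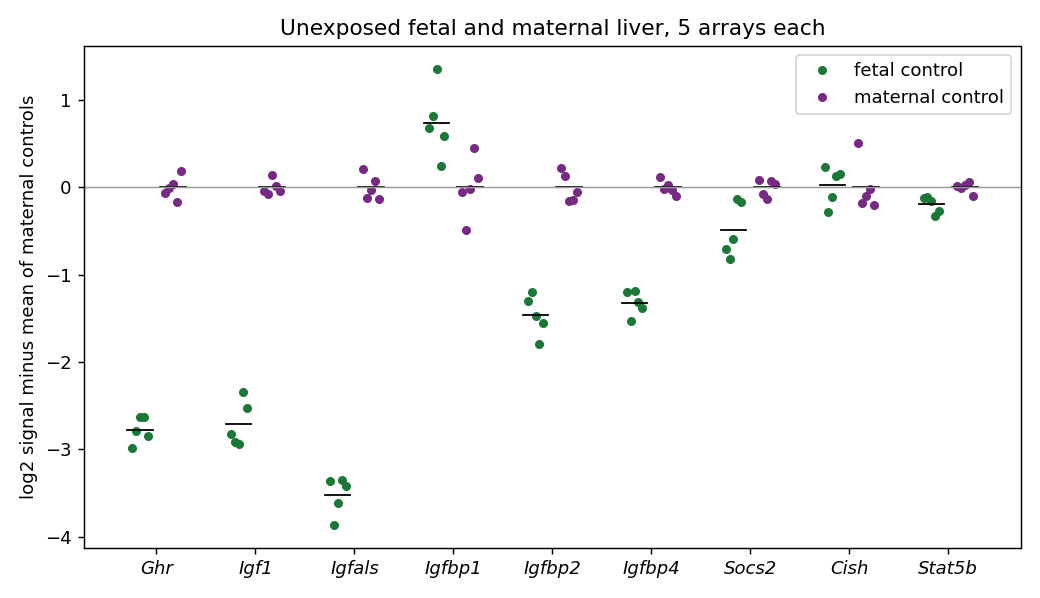
Log2 signal of each gene minus the mean of the maternal controls (vertical axis) in fetal control (green, left) and maternal control (purple, right) livers, 1 point per array, 5 arrays each, with a bar for the mean. Fetal values of Ghr, Igf1 and Igfals lie below 0 but are at background, so the distance is no measured size (at least 6.09-fold, 2.28-fold and 2.57-fold lower), and those of Igfbp1 average 0.74.

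In the same contrast, where 20% of all genes were higher and 42.2% lower, 7 of the 17 other IGF system genes were higher and 5 lower in fetal liver. Igf2 averaged 11.36 ± 0.03 in fetal and 7.72 ± 0.49 in maternal controls, where 3 of 5 arrays were above background, and was higher in fetal liver (adjusted p 1.4e-26). Grb10 averaged 11.10 ± 0.13 in fetal and 6.46 ± 0.06 in maternal controls, at least 11.2-fold higher in fetal liver (2.5e-33). Igf2bp3, an RNA-binding protein that binds Igf2 transcripts, was at least 1.55-fold higher (1.4e-24). Of the 22 growth hormone signalling genes 4 were higher and 14 lower. Jak2 was at least 1.42-fold higher in fetal liver (8e-10), and Hnf4a, a hepatocyte transcription factor, differed by -0.88 (5.3e-10). All 20 measured male-biased genes passed, 3 higher and 17 lower, and 17 of 22 female-biased genes were lower.

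The third question was whether an exposure acted differently on the 2 tissues, tested as the fetal minus the maternal effect. For PFOA5, 2 of the 9 members passed, where 4.48% of all genes did, 1.77% higher and 2.71% lower. Igfals had an effect of 0.10 in the fetus and -0.96 in the dam, a difference of 1.06 ± 0.22 (SE; adjusted p 0.0013), but its fetal signal was at background, where a fall cannot be seen. Stat5b had effects of -0.07 in the fetus and -0.39 in the dam, a difference of 0.32 ± 0.09 (SE; adjusted p 0.039). That call was kept in 10 of the 21 fits that left out 1 array, whose adjusted p ran from 0.0181 to 0.11. It was lost without maternal control replicate 1, 2, 3 or 4, maternal PFOA5 replicate 1 or 4, fetal control replicate 4 or 5, or fetal PFOA5 replicate 4, 5 or 6. Without both arrays of disagreeing labels the adjusted p was 0.0517, and without both of Y-linked signal 0.0537.

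For PFOA1, GenX2 and GenX10, 0 of the 9 members passed by limma, where 0.179%, 1.28% and 2.04% of all genes did. The members at an unadjusted p under 0.05 numbered 0, 3 and 3. For GenX10 the Igfals difference was 0.75 ± 0.23 (adjusted p 0.077), or 0.83 and 0.84 with adjusted p values of 0.0491 and 0.0463 without maternal GenX10 replicate 2 or 5, and 0.83 (0.0253) with the arrays of disagreeing labels grouped by source name. Igfbp2 effects were 0.71 in PFOA5 fetuses and 0.70 in PFOA5 dams, a difference of 0.01 with a 95% interval of -0.60 to 0.61. Among the other IGF system genes, the difference between tissues was negative for Grb10 (adjusted p 4.1e-12 for PFOA5 and 8.7e-08 for GenX10) and positive for Igf2 (0.0022 and 0.0063). No sizes are given, since Grb10 was at background in control dams and Igf2 in PFOA5 and GenX10 dams.

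The order of group means within a tissue is given as a description. Over the 9 members and both tissues there are 72 pairs of neighbouring groups in the order of means, and the values of 71 pairs overlapped. No such count was made over all genes, so it says nothing particular to these members. The exception was Stat5b in dams, where GenX10 (8.38 to 8.73) lay above PFOA5 (8.03 to 8.37). For Igfbp2 in dams the order from the highest mean was GenX10, PFOA5, GenX2, PFOA1 and control, and in fetuses GenX10, GenX2, PFOA5, PFOA1 and control. For Igfals in dams it was control, GenX2, PFOA1, GenX10 and PFOA5. Ghr was highest in control dams, followed by PFOA1, GenX10, GenX2 and PFOA5.

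The genes closest to each member were found among 6988 genes above background on every array of at least 1 group, by the root mean square of the difference between their 9 group values, each taken as the difference from the maternal control mean. Igfbp2 was closest to Sec14l2 (0.143), Hacl1 (0.166) and Adtrp (0.174). Igfals was closest to Lrg1 (0.203), Wfdc21 (0.294) and Thrsp (0.298). Igfbp4 was closest to 1300017J02Rik (0.0502), Hexa (0.083) and Tmprss6 (0.0845). Stat5b was closest to Wbp1 (0.061) and Ghr to Thrsp (0.234). These are descriptions over 9 values that share arrays and a large difference between tissues.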

How the data were processed

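Liver RNA of 50 samples was hybridised to 1-colour microarrays, 1 array each. The authors deposited a table of log2 signals for 72688 array features, made by RMA (background correction, quantile normalization and probe set summary), per the submitters' processing notes; mm10 is listed there as the build, without versions. RMA equalises the arrays' distributions, so differences are relative to the bulk of genes. Precision is limited by the number of arrays.

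Probes were named from the platform annotation and current symbols: of 32750 annotated probes, 30570 had 1 symbol, 643 several symbols of 1 gene and 1537 several genes, which were left out; 833 symbols were updated. The brightest probe stood for a gene in 367 cases, giving 30741 genes, all tested. Groups followed the sample titles. Per tissue, 1 fit of all 5 groups was made with limma 3.58.1 in R 4.3.3 (lmFit, eBayes); a fit of all 10 groups, 50 arrays, gave the tissue contrast and the fetal minus maternal effects. Adjusted p is Benjamini-Hochberg over all genes, and a gene passed at an adjusted p under 0.05. Dams and fetuses were treated as independent because their pairs are not named. "At least" folds set the brighter group against the lowest signal above background. Steps were tested on simulated data.

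The members and gene lists were chosen with earlier results of these data known. All members are named. Of the list genes that passed, only some are named, by no fixed rule, and they were chosen after their values were seen. Promoters are RefSeq's (GRCm38.p6). Alternatives covered the variance trend, a filter on dim genes, repeated quantile normalization, median centring, array weights, fits of only the groups compared, replicate number as a block, leaving out each array, the 2 arrays of disagreeing labels, the 2 of Y-linked signal, and an erythroid covariate.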

Additional observations from a re-analysis of the deposited data

Results flagged for a closer look

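Among 90 groups of arrays (9 genes in 10 groups), 6 held 1 array far from the rest by Dixon's test, which chance gives in about 1 in 20. Maternal GenX2 replicate 1 accounted for 3 of them. There Igfbp2 was 10.58, against 10.89 to 10.97 in the other GenX2 dams, Igfbp4 was 10.14, against 10.96 to 11.14, and Socs2 was 6.24, against 6.78 to 6.83. Socs2 was also low in fetal GenX2 replicate 4, at 6.06, against 6.63 to 6.73 in the other GenX2 fetuses. Cish was high in fetal GenX2 replicate 5, at 7.63, against 7.35 to 7.41 in the others. It was also high in maternal control replicate 1, at 7.94, against 7.24 to 7.42 in the others; this is the only Cish value of any array above background.

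In 2 cases an exposure's effect differed between the tissues by a test of the difference itself, the fetal minus the maternal effect in limma. For PFOA5 this was 1.06 on the log2 scale for Igfals (adjusted p 0.00132) and 0.32 for Stat5b (adjusted p 0.0391). Fetal Igfals was at background on all arrays.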

How the results depend on the processing

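Over 153 combinations of a gene and a comparison, 3181 recomputed values kept their sign and side of the threshold, 59 lost the threshold and 64 gained it. Another 154 values, in 38 of the combinations, changed sign; none passed in either fit. The fits without dim genes did not hold all members. Cish and Socs2 were left out of the maternal fits and of the fits of both tissues. The fetal fits also left out Ghr, Igf1 and Igfals. Members left out could not pass there. Counts of members that passed moved by over 1.5 times as follows, and other causes were not tested. In GenX2 dams the count of 1 became 2 with repeated quantile normalization and 3 with array weights. In GenX10 dams the count of 2 became 1 without dim genes, 1 with median centring and 4 with only the groups compared. In PFOA5 fetuses the count of 1 became 2 without dim genes, 2 with array weights, and 0 with only the groups compared or without the 2 arrays of disagreeing labels. In GenX2 fetuses the count of 1 became 2 without dim genes, 3 with quantile normalization, 4 with median centring, 3 with array weights and 5 with the erythroid covariate. In GenX10 fetuses the count of 2 became 1 with quantile normalization, 4 when arrays were grouped by source name, 1 without the 2 arrays of Y-linked signal and 5 with the erythroid covariate. For the PFOA5 difference between tissues, 2 became 1 with median centring, without the arrays of disagreeing labels, without those of Y-linked signal, or with the erythroid covariate. For GenX10 it was 1 in place of 0 without dim genes, with quantile normalization, array weights, only the groups compared, source-name grouping, or the erythroid covariate. Smaller moves were 5 to 6 in PFOA5 dams with quantile normalization, array weights or only the groups compared (Ghr gained) and 5 to 4 with median centring (Cish lost, adjusted p 0.0815). GenX10 dams had 3 with quantile normalization (Igfals gained, 0.0339). GenX10 fetuses had 3 with median centring, the replicate block, or without the arrays of disagreeing labels. PFOA5 set against PFOA1 dams gained Igfbp4 in 4 alternatives. The tissue comparison had 7 in place of 8 without dim genes, with quantile normalization, median centring, or without the arrays of Y-linked signal.

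With the replicate block, the count was 1 in GenX10 dams, 0 in PFOA5 fetuses and 4 in GenX2 fetuses. Same-numbered arrays of different groups correlated between -0.25 and 0.24 in dams (median -0.03) and between -0.54 and 0.59 in fetuses (median -0.03). For other numbers the median was 0.003 in both tissues. A dam and a fetus of 1 treatment with the same number correlated between -0.33 and 0.18 (24 pairs, median -0.07), against a median of 0.002 for other numbers. Ranges this wide cannot decide whether replicate numbers pair the samples.

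Leaving out 1 array at a time gave counts of 0 to 1 in PFOA1, 4 to 5 in PFOA5, 1 to 3 in GenX2 and 1 to 2 in GenX10 dams. It gave 0 to 2 in PFOA5, 1 to 3 in GenX2 and 1 to 3 in GenX10 fetuses. It gave 1 to 2 for the PFOA5 and 0 to 1 for the GenX10 difference between tissues. Igfals, Igfbp2, Igfbp4 and Stat5b in PFOA5 dams passed in all 8 alternatives and all 10 fits without 1 array, as did Igfbp2 in GenX2 and GenX10 dams. Signals near background limit Cish, Socs2 and fetal Ghr, Igf1 and Igfals.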
